A study of Mus musculus with 48 samples.

Results

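The genes described here are 6 genes at which C57BL/6J and DBA/2J mice are known to carry different alleles: Nnt, Gpnmb, Hc, Klrd1, Alad and Glo1. They were chosen by name, because a deletion, nonsense, insertion or copy-number variant has been reported at each of them. Earlier results of these data were known when they were chosen. They took 7 of the 55487 rows of the count table, since 2 Ensembl gene IDs carry the symbol Nnt. RNA-seq was done on 48 libraries of kidney slices from male mice, treated outside the body. C57BL/6J and DBA/2J are inbred strains and the 2 parents of the BXD recombinant inbred lines. The 8 conditions in each strain were control, tunicamycin and cyclosporin A slices at 6 h and at 24 h, normoxia and normoxia-hyperoxia, with 3 libraries per strain and condition. Tunicamycin blocks N-linked glycosylation in the endoplasmic reticulum, and cyclosporin A is a calcineurin inhibitor that is toxic to the kidney. The labels call normoxia a model of ischemia and normoxia-hyperoxia a model of reperfusion, with 24 h in the titles. The labels give no drug dose, no age of the mice, no oxygen level for control slices and no time at which the oxygen was switched.

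The 6 genes work in separate systems, and each is a textbook example of a strain difference. Nnt encodes nicotinamide nucleotide transhydrogenase, an enzyme of the inner mitochondrial membrane that makes NADPH for the removal of peroxides, and C57BL/6J carries a deletion of several of its exons. Gpnmb encodes a membrane glycoprotein of melanosomes and lysosomes that is made by pigment cells and macrophages, and DBA/2J carries a nonsense allele that takes part in its inherited glaucoma. Hc encodes complement component C5, which starts the terminal complement pathway and is absent from DBA/2J serum because of a small frameshift deletion. Klrd1 encodes CD94, the partner of NKG2 receptors on natural killer cells, and DBA/2J cells lack CD94 on their surface. Alad encodes aminolevulinate dehydratase, an early enzyme of heme synthesis, and DBA/2J carries extra copies of it. Glo1 encodes glyoxalase 1, which removes methylglyoxal with the help of glutathione, and several inbred strains, DBA/2J among them, carry a duplicated segment that holds it.

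Sequence of 2 of the genes is shown, and both stretches were read from the GRCm38 reference, which is itself a C57BL/6J assembly. In Gpnmb the stretch lies in exon 4 of 11 of the transcript Gpnmb-201, and the capitals mark codon 150 of 574, at chr6:49045385-49045387 on the plus strand. This arginine codon is the site of the DBA/2J nonsense allele, and 26% of the codons come before it. In Nnt the stretch spans the junction of exons 6 and 7 of the 17 exons of Nnt-202, and the capitals mark exon 7. Before the junction lie 258 whole codons of 835. On the minus strand of chromosome 13 the 2 exons are joined over an intron of 4715 bases between positions 119381863 and 119386579. Where the exons that C57BL/6J has lost would lie was not determined, so this junction is not shown as the site of the deletion. Reads from those exons have no place in this reference.
Gpnmb, codon 150: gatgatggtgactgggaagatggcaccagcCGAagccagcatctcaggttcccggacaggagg
Nnt, exon 6 to exon 7: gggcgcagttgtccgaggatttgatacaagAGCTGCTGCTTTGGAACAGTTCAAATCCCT

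In the GENCODE M21 annotation of GRCm38, Nnt (ENSMUSG00000025453) lies at chr13:119335448-119408997 on the minus strand, and Gpnmb (ENSMUSG00000029816) at chr6:49036546-49070929 on the plus strand. Hc (ENSMUSG00000026874) lies at chr2:34983331-35061438 on the minus strand, and Klrd1 (ENSMUSG00000030165) at chr6:129591782-129598775 on the plus strand. Alad (ENSMUSG00000028393) lies at chr4:62509169-62519918 and Glo1 (ENSMUSG00000024026) at chr17:30584936-30626871, both on the minus strand. Hc overlaps an antisense gene, Gm13449. Glo1 overlaps AC174471.1 and 1700097N02Rik on its own strand. On the other strand it overlaps Dnah8, AC165962.2, AC165962.3 and AC165962.4. The strand setting of the counting is not given in the sources used here, so reads of these overlapping genes cannot be told apart with certainty. The second Nnt ID (ENSMUSG00000116207) overlaps the first and held 118412 counts against 119119. In single libraries it held between 97.8% and 99.9% of the first ID's counts, and the values below are those of the first.

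The libraries held between 5619309 and 25137581 counts, with a median of 19607361, and the lowest was replicate 2 of the DBA/2J normoxia-hyperoxia group. Levels are given in CPM, the count scaled to a fixed library total of 1000000 counts. Differences are log2 fold changes of DBA/2J against C57BL/6J from edgeR's quasi-likelihood F test, with a standard error (SE) and a p-value adjusted by the Benjamini-Hochberg method over all genes tested, and a gene was called at an adjusted p under 0.05. The labels number the 3 libraries of a group as biological replicates without saying which mouse each came from, so the p-values measure the spread between these libraries. Of the 6 genes, 4 passed the filter on low counts in the fit of all libraries, and Hc and Klrd1 did not. In tissue as mixed as this, fewer cells of a type and less RNA per cell cannot be told apart. The slices held kidney RNA: the summed level of 6 proximal tubule markers (Slc34a1, Lrp2, Cubn, Slc5a2, Aqp1 and Slc22a6) lay between 137 and 6996 CPM in the C57BL/6J libraries and between 559 and 13238 CPM in those of DBA/2J.

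Over the 8 conditions, Alad, Glo1 and Nnt were higher in DBA/2J and Gpnmb was lower. Alad was 2.95-fold higher (log2 1.56, SE 0.0527, adjusted p = 1.48e-25), Glo1 was 2.15-fold higher (log2 1.11, SE 0.0280, adjusted p = 4.26e-30) and Nnt was 1.94-fold higher (log2 0.96, SE 0.0534, adjusted p = 2.16e-18). Gpnmb was 6.21-fold lower (log2 -2.63, SE 0.186, adjusted p = 2.16e-15). All 4 tested genes were called, where the background was high: 64% of the 18719 genes tested were called, 33% as higher and 31% as lower in DBA/2J. A call with a log2 difference above 1 or below -1, which Alad, Glo1 and Gpnmb had, was made for 11% of the genes. The 4 genes also had strains that did not overlap within any of the 8 conditions, always in the same direction, which held for 8.24% of the genes tested (6.57% higher and 1.67% lower in DBA/2J).

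**Figure D1:**
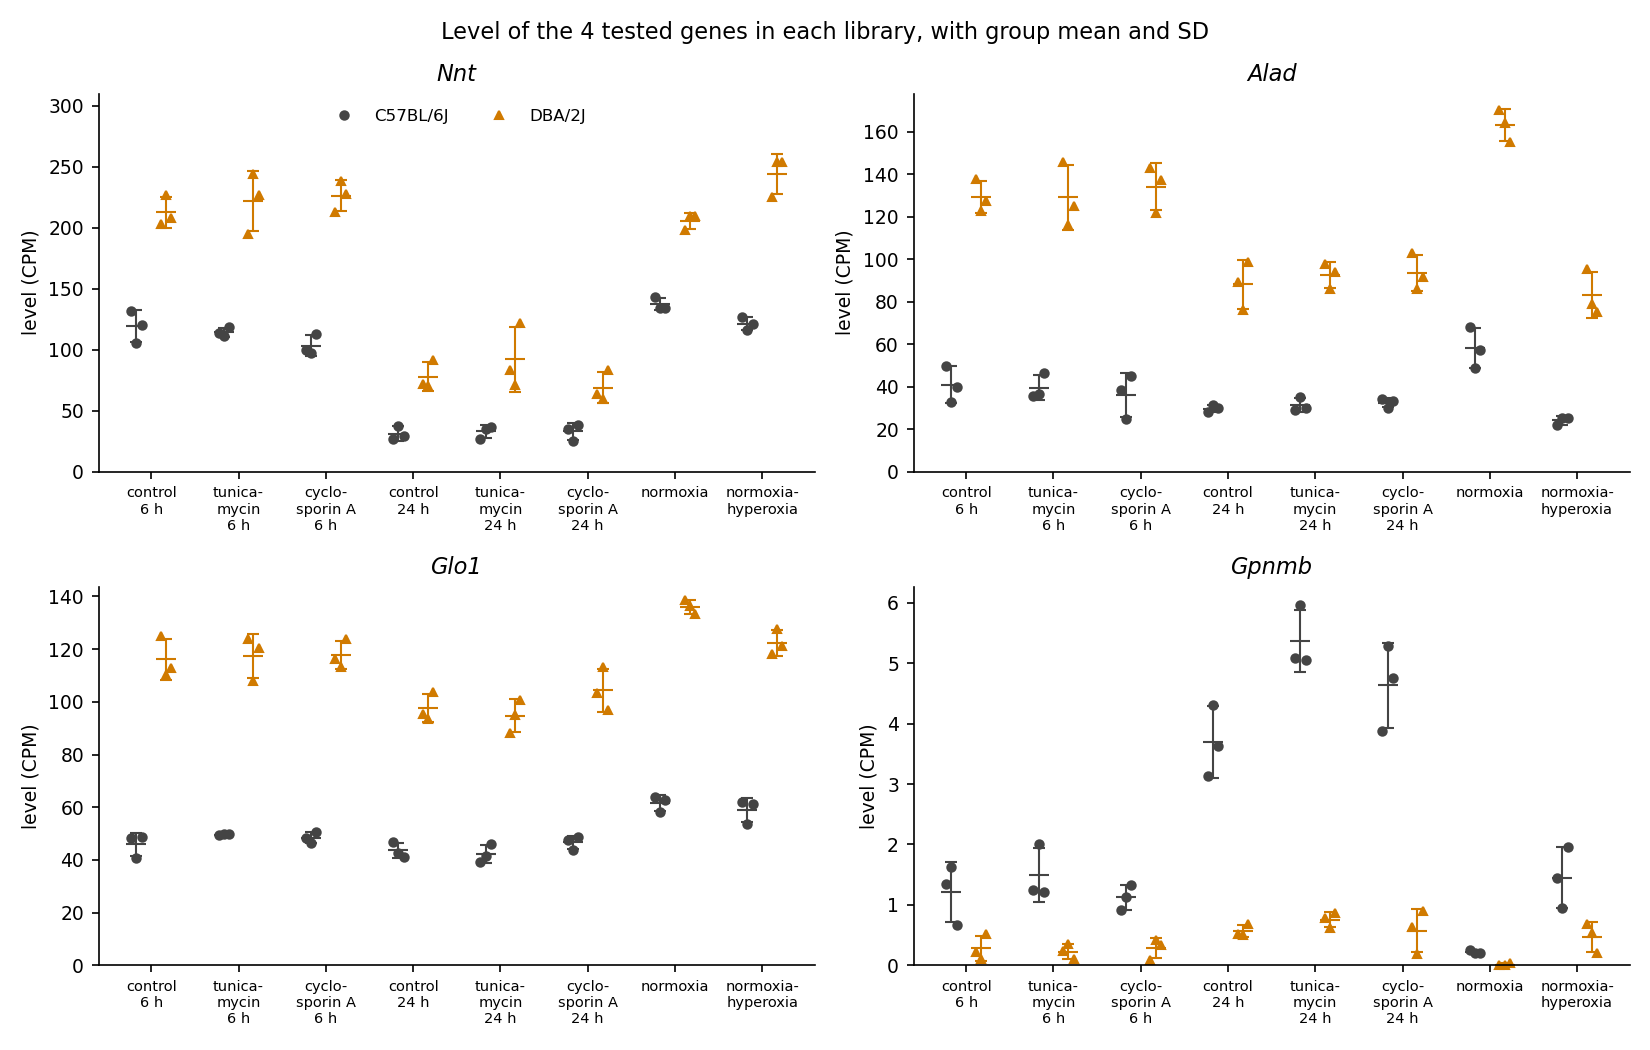
Level of Nnt, Alad, Glo1 and Gpnmb in CPM (vertical axis, linear from 0, a separate scale for each gene) in each of the 48 libraries, by condition (horizontal axis) and strain; symbols are libraries and bars the group mean with its SD (n = 3). In every condition the DBA/2J libraries of Nnt, Alad and Glo1 lie above the C57BL/6J libraries, and those of Gpnmb lie below them.

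**Figure D2:**
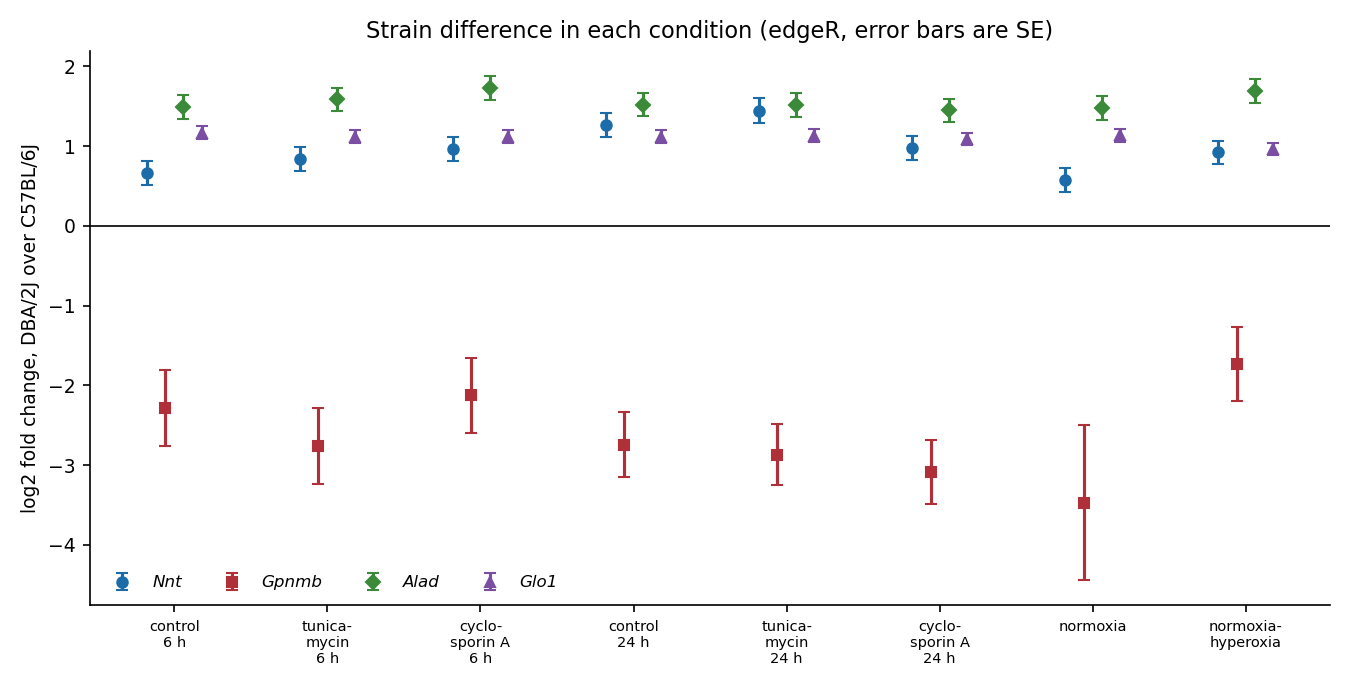
Log2 difference of DBA/2J against C57BL/6J (vertical axis) in each condition (horizontal axis) for the 4 tested genes, with SE bars from the fit of all 48 libraries. Glo1 stayed between 0.97 and 1.17, Alad between 1.45 and 1.73 and Nnt between 0.57 and 1.45, while Gpnmb lay between -3.47 and -1.73.

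Among the tested genes, only Alad and Glo1 had strains that did not overlap over all 48 libraries. Over all conditions the 24 C57BL/6J libraries had 36.6 ± 11.2 CPM of Alad (SD, n = 24) and the DBA/2J libraries 114 ± 28.7 CPM (SD, n = 24). The highest C57BL/6J library, at 68.1 CPM under normoxia, lay below the lowest DBA/2J library, at 75.0 CPM under normoxia-hyperoxia. For Glo1 the means were 49.6 ± 7.21 and 113 ± 14.1 CPM (SD, n = 24 each), and the highest C57BL/6J library (63.9 CPM) again lay below the lowest DBA/2J library (88.3 CPM). Such a separation over all 48 libraries was seen in 1.55% of the genes tested, with DBA/2J higher in 1.16% and lower in 0.395%. Nnt and Gpnmb overlapped between the strains when the conditions were pooled, though not within any condition.

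For Alad, the control slices at 6 h had 50.0, 32.7 and 40.1 CPM in C57BL/6J and 138, 123 and 127 CPM in DBA/2J. With tunicamycin at 6 h they had 35.8, 36.4 and 46.4 CPM against 146, 116 and 125 CPM. With cyclosporin A at 6 h they had 38.5, 25.0 and 45.1 CPM against 143, 122 and 137 CPM. At 6 h the DBA/2J libraries thus kept to one range whatever the drug, and none came near the C57BL/6J libraries. At 24 h the controls had 27.9, 31.3 and 30.1 CPM against 89.4, 76.2 and 98.8 CPM. Tunicamycin gave 29, 35.2 and 30.1 CPM against 97.7, 86.1 and 93.9 CPM, and cyclosporin A gave 34.2, 30.2 and 33.2 CPM against 103, 86.1 and 91.5 CPM. In the controls both strains were lower at 24 h than at 6 h, without overlap. Under normoxia Alad stood at 68.1, 49.0 and 57.5 CPM in C57BL/6J and at 170, 164 and 155 CPM in DBA/2J. Normoxia-hyperoxia left it at 21.8, 25.3 and 25.5 CPM against 95.5, 79.0 and 75.0 CPM. These conditions held the highest Alad group mean (DBA/2J under normoxia) and the lowest (C57BL/6J under normoxia-hyperoxia). The strain difference itself kept to 2.73-fold to 3.32-fold.

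Glo1, the methylglyoxal-removing enzyme, had 48.3, 40.9 and 48.6 CPM in the C57BL/6J controls at 6 h and 125, 110 and 113 CPM in those of DBA/2J. With tunicamycin at 6 h it had 49.4, 49.8 and 49.7 CPM against 124, 108 and 120 CPM. With cyclosporin A at 6 h it had 48.3, 46.4 and 50.7 CPM against 116, 113 and 124 CPM. The 9 C57BL/6J libraries at 6 h lay close together and far below those of DBA/2J. The 24 h controls had 46.9, 42.6 and 41.3 CPM against 95.5, 93.7 and 104 CPM. Tunicamycin at 24 h gave 39.3, 41.6 and 46 CPM against 88.3, 94.9 and 101 CPM, and cyclosporin A at 24 h gave 47.5, 43.8 and 48.6 CPM against 103, 113 and 96.7 CPM. All but one of the DBA/2J libraries at 24 h lay below those at 6 h, and the C57BL/6J libraries of the 2 times overlapped. Normoxia gave 63.9, 58.1 and 62.7 CPM against 138, 136 and 133 CPM, and normoxia-hyperoxia gave 62.1, 53.6 and 61.2 CPM against 118, 128 and 121 CPM. The oxygen conditions held the highest Glo1 libraries of C57BL/6J, and normoxia those of DBA/2J. Of the 4 tested genes, Glo1 had the narrowest range of strain differences, from 1.95-fold to 2.25-fold.

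Nnt, the mitochondrial transhydrogenase, had the largest change with time of the 4 tested genes. The controls at 6 h had 132, 105 and 121 CPM in C57BL/6J and 203, 227 and 208 CPM in DBA/2J. With tunicamycin at 6 h they had 113, 111 and 118 CPM against 195, 244 and 227 CPM. With cyclosporin A at 6 h they had 99.4, 97.2 and 113 CPM against 213, 238 and 227 CPM. All 9 DBA/2J libraries at 6 h lay above all 9 of C57BL/6J. The controls at 24 h had 26.5, 37.9 and 29.6 CPM against 72.1, 70.0 and 91.6 CPM. Tunicamycin at 24 h gave 27.2, 35.5 and 36.6 CPM against 83.1, 71.5 and 122 CPM, and cyclosporin A at 24 h gave 35.5, 25.5 and 38.5 CPM against 63.9, 59.8 and 83.5 CPM. All but one of these DBA/2J libraries lay below the C57BL/6J libraries at 6 h, so the strains overlapped once conditions were pooled. Under normoxia the slices had 143, 134 and 134 CPM against 198, 209 and 210 CPM. Under normoxia-hyperoxia they had 127, 116 and 121 CPM against 225, 254 and 254 CPM. In these conditions every Nnt library lay above the 24 h controls of its strain. The strain difference ran from 1.49-fold under normoxia (log2 0.57, SE 0.148, adjusted p = 2.10e-03) to 2.72-fold with tunicamycin at 24 h (log2 1.45). The Nnt rows count the exons that both alleles hold, and the part of the missing exons in the difference was not tested.

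Gpnmb, the lysosomal and melanosomal glycoprotein, was low throughout, with 4 to 139 counts per library in C57BL/6J and 0 to 17 in DBA/2J. The controls at 6 h had 1.34, 1.63 and 0.672 CPM in C57BL/6J and 0.228, 0.104 and 0.515 CPM in DBA/2J. Tunicamycin at 6 h gave 1.24, 2.00 and 1.22 CPM against 0.231, 0.350 and 0.102 CPM, and cyclosporin A at 6 h gave 0.919, 1.12 and 1.33 CPM against 0.097, 0.426 and 0.332 CPM. Every C57BL/6J library at 6 h was above every DBA/2J library. The controls at 24 h had 3.14, 4.31 and 3.63 CPM against 0.520, 0.507 and 0.677 CPM. Tunicamycin at 24 h gave 5.09, 5.96 and 5.06 CPM against 0.777, 0.620 and 0.861 CPM, and cyclosporin A at 24 h gave 3.89, 5.28 and 4.75 CPM against 0.627, 0.190 and 0.896 CPM. These were the highest Gpnmb libraries of the study in C57BL/6J, and in DBA/2J they stayed under 1 CPM. Normoxia left almost none: 6, 4 and 4 counts in C57BL/6J and 0, 0 and 1 in DBA/2J. At 14 counts against 1, the ratio was 15.1 with a 95% exact interval of 2.29 to 637, which covers counting error only, so its size is poorly known. The fitted log2 difference there was -3.47, and leaving out each normoxia library in turn gave -5.27 to -3.00. Normoxia-hyperoxia gave 1.44, 0.955 and 1.97 CPM against 0.689, 0.534 and 0.201 CPM, the smallest difference at 3.33-fold (log2 -1.73, SE 0.466, adjusted p = 5.89e-03). Without replicate 3 of the DBA/2J normoxia-hyperoxia group this difference was -1.24 and was no longer called (adjusted p = 0.0796). RNA of the nonsense allele was thus counted in DBA/2J at a low level, with 178 counts in all against 1123 in C57BL/6J.

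In each single condition the 4 tested genes were called, against 25.8%, 25.6% and 35.9% of genes in the control, tunicamycin and cyclosporin A slices at 6 h. At 24 h the share of genes called was 21.7%, 17.6% and 21.5% in the same order, 39.9% under normoxia and 22.3% under normoxia-hyperoxia. Non-overlap of the strains in a single condition was common: it held for 42.2%, 40.4% and 45.8% of genes in the control, tunicamycin and cyclosporin A slices at 6 h. At 24 h it held for 39%, 33.4% and 35.5% of genes in the same order, for 55.3% under normoxia and for 36.9% under normoxia-hyperoxia. A call in the same direction in each of the 8 conditions was made for 5.28% of genes. When the 16 groups were ordered by mean level, most neighbours in the order could not be told apart. Of the 15 pairs of neighbours, 12 overlapped for Nnt, 12 for Gpnmb, 11 for Alad and 12 for Glo1.

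Hc and Klrd1 were at or near the floor of these libraries. Klrd1, the CD94 gene, had 74 counts in all C57BL/6J libraries and 20 in those of DBA/2J, a ratio of 3.69 (95% exact interval 2.23 to 6.38, counting error only). Most of the C57BL/6J counts came from normoxia, with 23, 10 and 9 counts against 0, 3 and 1 in DBA/2J. These 2 sets did not overlap, as for 55.3% of the genes tested under normoxia, and the ratio there was 11.3 (4.10 to 43.4). Leaving out each normoxia library in turn gave ratios from 7.20 to 32.3. The controls at 6 h had 1, 5 and 6 counts against 1, 3 and 1. Tunicamycin at 6 h gave 2, 2 and 1 against 0, 2 and 2, and cyclosporin A at 6 h gave 1, 2 and 1 against 1, 0 and 4. At these counts no strain difference was detectable at 6 h. The controls at 24 h had 0, 3 and 1 counts in C57BL/6J and none in DBA/2J, where 3 counts, the limit that a count of 0 allows, would be 0.0559 CPM over the group. With tunicamycin and cyclosporin A at 24 h no library of either strain held a count, with limits of 0.0476 to 0.0507 CPM. Normoxia-hyperoxia gave 2, 3 and 2 counts against 2, 0 and 0. Fitted without the filter on low counts, the Klrd1 difference under normoxia was -3.26 (SE 0.98, edgeR adjusted p = 0.0108). This value is given for normoxia alone, the condition with the most Klrd1 counts.

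Hc, the gene of complement C5, had 29 counts in all C57BL/6J libraries and 67 in those of DBA/2J, the strain whose serum lacks the protein. The ratio of DBA/2J over C57BL/6J was 2.32 (1.48 to 3.72, counting error only), but the replicates of some groups were uneven. The 18 DBA/2J counts with cyclosporin A at 6 h fell as 8, 0 and 10, against 1, 2 and 0 in C57BL/6J. With cyclosporin A at 24 h the counts were 3, 6 and 3 against 1, 1 and 0, the single condition in which the strains did not overlap. In that condition 35.5% of the genes tested did not overlap. Under normoxia they were 8, 2 and 4 against 0, 0 and 4, and under normoxia-hyperoxia 0, 0 and 1 against 0, 0 and 6. The controls had 3, 0 and 0 against 0, 4 and 0 at 6 h and 7, 0 and 2 against 1, 0 and 1 at 24 h. Tunicamycin gave 3, 1 and 3 against 0, 0 and 1 at 6 h and 3, 0 and 0 against 4, 2 and 1 at 24 h. The direction changed between conditions. Fitted without the filter, the difference over the 8 conditions was 0.82 (SE 0.55, edgeR adjusted p = 0.335), which is not past the threshold.

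**Figure D3:**
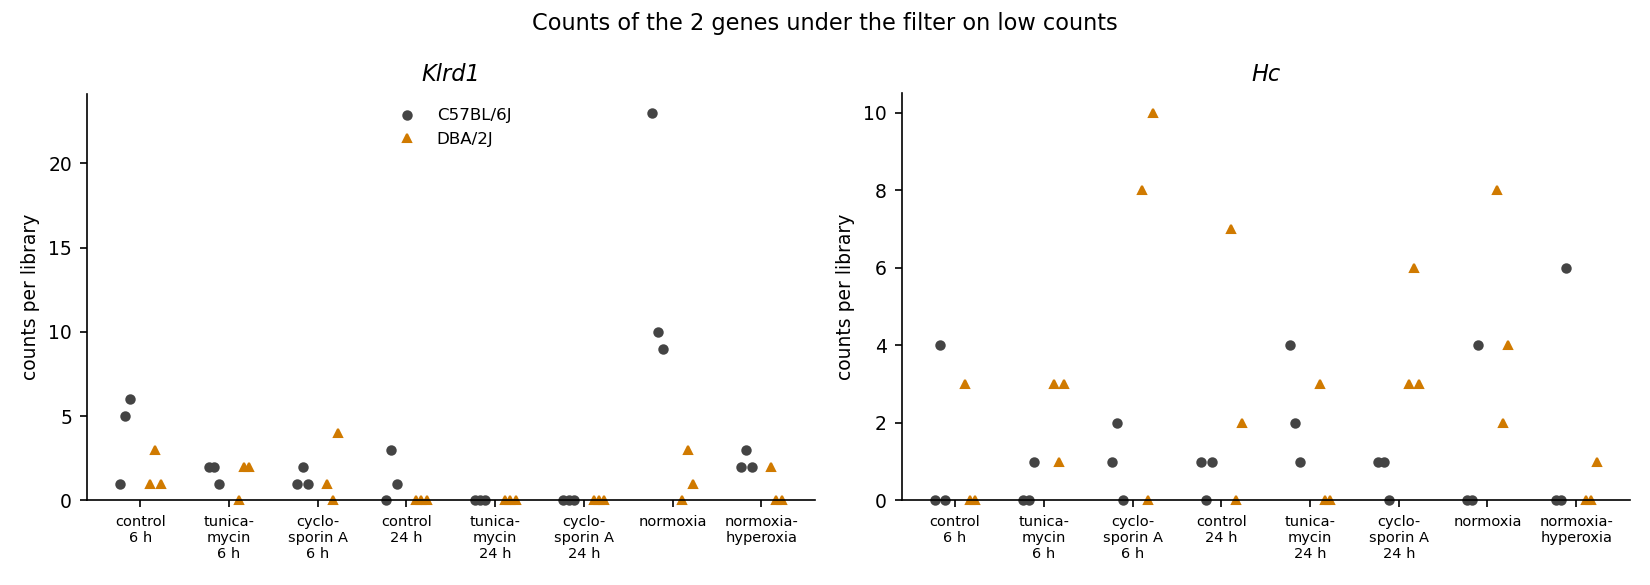
Counts per library (vertical axis, linear from 0) of Klrd1 and Hc by condition and strain; each symbol is a library. The 3 C57BL/6J normoxia libraries hold 23, 10 and 9 counts of Klrd1, and no library of either gene elsewhere passes 10.

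Time in culture and normoxia each changed all 4 tested genes in the mean over both strains. These comparisons used the 12 libraries of the 4 groups concerned, and effects within a single strain were not tested. The 24 h controls enter several of them, so the comparisons share those libraries. From 6 h to 24 h in the controls, Nnt fell by 1.90 on the log2 scale (SE 0.0979, adjusted p = 6.45e-10), and mean CPM was 3.81-fold lower in C57BL/6J slices and 2.73-fold lower in those of DBA/2J. Alad fell by 0.72 (SE 0.0925, adjusted p = 5.98e-06) and Glo1 by 0.37 (SE 0.0643, adjusted p = 9.84e-05), while Gpnmb rose by 1.10 (SE 0.322, adjusted p = 6.62e-03). In this comparison 72% of the genes tested were called. Gpnmb thus moved against the other 3 genes with time in culture, but within a strain the libraries of the 2 times overlapped for Glo1 in C57BL/6J and for Gpnmb in DBA/2J.

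Under normoxia against the 24 h controls, with 82% of genes called, 3 of the genes rose and Gpnmb fell. Nnt rose by 2.04 (SE 0.0861, adjusted p = 5.83e-12), Alad by 1.20 (SE 0.0835, adjusted p = 2.09e-09) and Glo1 by 0.76 (SE 0.0543, adjusted p = 1.96e-09). Gpnmb fell by 4.13 (SE 0.369, adjusted p = 3.14e-08), from 3.69 to 0.222 CPM in C57BL/6J. Under normoxia-hyperoxia against the same controls, with 68.2% of genes called, Nnt rose by 1.97 (SE 0.0894, adjusted p = 1.71e-10) and Glo1 by 0.55 (SE 0.0575, adjusted p = 7.03e-07). Alad had a value of -0.02 (adjusted p = 0.855) and Gpnmb one of -0.66 (SE 0.295, adjusted p = 0.0577), and neither was called. The Gpnmb value depended on single libraries. It was called without replicate 3 of C57BL/6J (-0.80, adjusted p = 0.0316) or without replicate 1 of DBA/2J (-1.0, adjusted p = 0.0151) under normoxia-hyperoxia.

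Set directly against normoxia, with 73.5% of genes called, normoxia-hyperoxia had less Alad, at -1.21 (SE 0.0905, adjusted p = 1.09e-08), and less Glo1, at -0.20 (SE 0.0540, adjusted p = 3.67e-03). Gpnmb rose by 3.47 (SE 0.510, adjusted p = 1.62e-05), from the normoxia groups with 14 counts in C57BL/6J and 1 in DBA/2J. Nnt had a value of -0.05 (adjusted p = 0.367). The oxygen groups carry titles that place them in another part of the study than the controls. Whether that bears on these values was not tested.

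**Figure D4:**
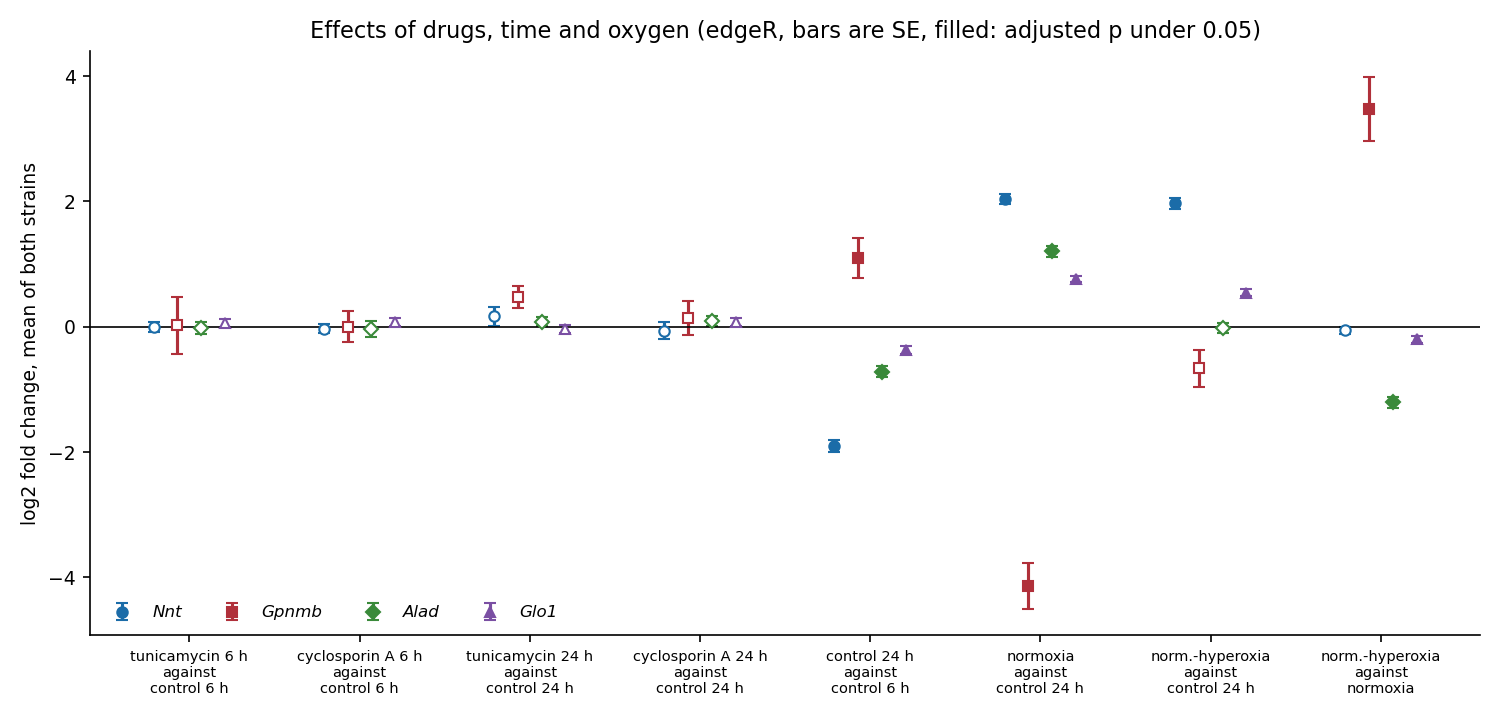
Log2 effect of each treatment or time (vertical axis), as the mean over both strains with its SE, for Nnt, Gpnmb, Alad and Glo1 in the 8 comparisons (horizontal axis); filled symbols were called. No drug effect was called, the largest being 0.48 for Gpnmb with tunicamycin at 24 h, while time and the oxygen conditions move Nnt by up to 2.04 and Gpnmb by -4.13.

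The drugs changed none of the 4 tested genes past the threshold in edgeR, and DESeq2 called none of them either. For tunicamycin at 24 h, 1.38% of all genes were called and 1 of the 4 genes had an unadjusted p under 0.05: Gpnmb, at 0.48 (SE 0.174, adjusted p = 0.234). For tunicamycin at 6 h and for cyclosporin A at 6 h and 24 h, edgeR called 0 of the genes that passed the filter. In these comparisons 281, 734 and 1107 of those genes had an unadjusted p under 0.05, none of them one of the 4 genes. DESeq2 called 0, 51 and 22 genes, and edgeR without the filter called 0, 4 and 3.

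The strains differed in their response for 1 of the 4 genes. The rise of Nnt under normoxia against the 24 h controls was smaller in DBA/2J, 2.64-fold by mean CPM, than in C57BL/6J, 4.38-fold. The interaction was -0.61 (SE 0.167, adjusted p = 0.0221), in a comparison where 17% of genes had a called interaction. Without replicate 1 of the C57BL/6J controls at 24 h it was -0.49 and missed the threshold (adjusted p = 0.0621). In the fall from 6 h to 24 h, where 0.69% of genes had a called interaction, the Nnt interaction was 0.59 (SE 0.190) and was not called (adjusted p = 0.189). The interactions of Alad ran from 0.02 (time in culture) to 0.17 (normoxia-hyperoxia against controls) in the time and oxygen comparisons, and none was called. Those of Glo1 ran from -0.26 to 0.09, and none was called. In normoxia-hyperoxia against normoxia, where 18.2% of genes had a called interaction, Glo1 had -0.26 (SE 0.108, adjusted p = 0.11) and Nnt had 0.26 (SE 0.107, adjusted p = 0.108). Both had an unadjusted p under 0.05. Those of Gpnmb had SEs of 0.599 to 1.10, so differences of its response between the strains were poorly resolved.

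The levels of cell type markers moved with strain and condition beside these genes. All 6 proximal tubule markers were higher in DBA/2J over the 8 conditions, as were 33% of all genes. Their median was 1.07, against 0.0095 over all genes. From 6 h to 24 h all 6 fell (median -2.66, with 37.4% of all genes falling), under normoxia all 6 rose against the 24 h controls (median 3.73, with 42.4% of all genes rising), and under normoxia-hyperoxia 5 of 6 fell against the controls (median -1.08, with 34.1% of all genes falling). Nnt, Alad and Glo1 moved in the same directions as these markers with time and under normoxia, and Nnt and Glo1 did not under normoxia-hyperoxia. Of 7 tested macrophage markers (of 8 listed), 4 were higher and 1 lower in DBA/2J, beside 33% and 31% of all genes. The list summed to 77.0 to 227 CPM in C57BL/6J and 115 to 405 CPM in DBA/2J. The list was mixed: C1qb was lower at -0.42 and Mrc1 higher at 1.17. Under normoxia, where 39.9% of all genes were called, none of the 7 was higher and 2 were lower (median -0.36). Melanocyte markers summed to 0.161 to 1.12 CPM in C57BL/6J and 0.105 to 1.55 CPM in DBA/2J. Of the 2 of 6 that passed the filter 1 was lower, as were 31% of all genes. In each strain 1 of the 6 melanocyte genes had no count in any library. The 4 endothelial markers were all lower in DBA/2J (median -0.68), as were 31% of all genes. Under normoxia-hyperoxia none of the 4 was called (median 0.02), where 22.3% of all genes were. Of 6 markers of other nephron segments 1 was higher and 4 were lower, beside 33% and 31% of all genes. T cell markers summed to 0.700 to 10.9 CPM in C57BL/6J and 3.61 to 20.5 CPM in DBA/2J. Over the 8 conditions 2 of 4 were higher and 1 lower, beside 33% and 31% of all genes. The part of the cell makeup in the results for the 6 genes was not tested.

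The genes that work with each of the 6 were taken from lists by function, and their strain counts stand beside 33% of all genes tested called as higher and 31% as lower in DBA/2J. Of 18 genes of mitochondrial NADPH supply and peroxide removal, the setting of Nnt, 9 were higher and 6 lower in DBA/2J, with a median of 0.08. Gsr, which reduces glutathione, was higher by 0.68 (SE 0.031) and Shmt2, of mitochondrial one-carbon metabolism, by 0.78 (SE 0.065). Mthfd2l and Aldh1l2, which belong to the same folate pathway, were lower, at -0.33 and -0.52. The Aldh1l2 value is the mean over conditions and its direction varied: DBA/2J lay above without overlap in 1 condition and below in 3, and the mean CPM over all libraries was higher in DBA/2J (40.4 against 35.9). With time in culture 9 of the 18 fell and 4 rose, where 37.4% of all genes tested fell and 34.7% rose. Under normoxia 13 rose and 5 fell, where 42.4% of all genes rose and 39.7% fell.

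Of 15 genes for heme synthesis and breakdown, the setting of Alad, 9 were higher and 4 lower in DBA/2J (33% and 31% of all genes), with a median of 0.26. Cpox, which acts later in the pathway, was higher by 0.69 (SE 0.053) and Fech, which inserts the iron, by 0.50 (SE 0.042). Ppox, which acts between them, was lower at -0.34, and Blvrb, a biliverdin reductase, at -0.24. Against the same shares of all genes, 10 of 15 fell and 2 rose with time in culture, and 13 rose and 2 fell under normoxia. From normoxia to normoxia-hyperoxia 11 fell and 1 rose, where 36.5% of all genes fell and 37% rose.

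Of 14 genes for methylglyoxal and glutathione, the setting of Glo1, 7 were higher and 4 lower in DBA/2J (33% and 31% of all genes), with a median of 0.11. Hagh, which encodes the next enzyme of the glyoxalase pathway, was higher by 0.43 (SE 0.030) in 8 of 8 conditions without overlap, as 6.57% of all genes were. The aldose reductase gene Akr1b3 was higher by 0.44. The genes for the 2 subunits of the enzyme that starts glutathione synthesis were lower, Gclc at -0.96 (SE 0.074) and Gclm at -0.50 (SE 0.041). In Gclc the C57BL/6J libraries lay above those of DBA/2J in each of the 8 conditions, as for 1.67% of all genes.

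Of 15 genes of MiT transcription factors, lysosomes and phagocytes, the setting of Gpnmb, 5 were higher and 6 lower in DBA/2J (33% and 31% of all genes), with a median of -0.05. Trem2, a phagocyte receptor, was higher by 1.48 (SE 0.173) and Tfec, a MiT family factor, by 1.00 (SE 0.112), against the direction of Gpnmb. Sdc4 and Atp6v0d2 were lower, at -0.39 and -0.50. Of 10 tested terminal complement genes (of 13), 3 were higher and 4 lower. The calls in both lists were near the 64% of all genes called. C8a, of the membrane attack complex, was higher by 1.43 and C3, the central complement component, by 1.21, while the complement regulators Clu and Cd59a were lower at -0.99 and -0.80.

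Of 12 tested genes (of 16) for CD94 partners and natural killer cells, the setting of Klrd1, 2 were higher and 4 lower over the 8 conditions (33% and 31% of all genes). Eomes, a transcription factor of natural killer and T cells, was higher by 1.16, and the adaptor gene Tyrobp by 0.16. H2-T23, which encodes the ligand that CD94 receptors bind, was lower at -0.39, and the adaptor gene Fcer1g at -0.38. Under normoxia, where Klrd1 stood apart, 1 was higher (Eomes, 1.77) and 4 were lower: Gzmb at -1.94, Nkg7 at -1.91, Fcer1g at -0.86 and H2-T23 at -0.81. These 5 of 12 stood beside 39.9% of all genes called in that condition, a share near the background. Of the 4 T cell markers, 1 was higher and 3 were lower under normoxia (median -1.55), while their summed level was 8.92 to 10.9 CPM in the C57BL/6J libraries against 17.2 to 20.5 CPM in those of DBA/2J. Ncr1, a receptor that defines natural killer cells, had 0.93 (adjusted p = 0.222) and was not called. The others of the list not called under normoxia went both ways. They were Klrk1 (-1.07), Klrc1 (-1.05), Tyrobp (-0.27), Hcst (-0.04), Prf1 (0.35) and Gzma (1.29). The summed list stood at 118 to 121 CPM in C57BL/6J and 63.3 to 80.4 CPM in DBA/2J under normoxia. Most of that sum was H2-T23, which many cell types make, at 90.4 ± 0.583 CPM in the C57BL/6J libraries against 51.9 ± 8.05 CPM in those of DBA/2J (SD, n = 3 each). The part of natural killer cells and T cells in the Klrd1 counts was not tested.

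The genes beside each of the 6 were read against the 64% of all tested genes that were called. Of the 10 tested genes nearest to Alad, 5 on each side, 5 were higher and 1 lower in DBA/2J, a share near that background. Hdhd3, a gene for a phosphatase-like protein, lies at chr4:62499008-62503467, and its lower coordinate is 10.2 kb from that of Alad. It was 3.67-fold higher (log2 1.88, SE 0.093, adjusted p = 4.48e-20), with 1.44 to 8.93 CPM in C57BL/6J and 5.54 to 35.3 CPM in DBA/2J, and the strains did not overlap in 8 of 8 conditions. None of the others reached a log2 difference of 0.5, the nearest being Rnf183 at 0.49. Pole3, the nearest on the far side, had 0.17.

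Of the 10 genes nearest to Glo1, 8 were higher and 1 lower in DBA/2J. AC174471.1, which overlaps Glo1 on the same strand, was higher by 1.24 (SE 0.050), AC165962.1 by 0.77 (SE 0.055), Dnah8 by 0.88 (SE 0.207) and the hormone receptor gene Glp1r by 0.57 (SE 0.141). Gm15318 was higher by 1.68 and Abcg1, a sterol transporter gene, was lower at -0.45. Zfand3 at the far end was not called, at -0.004 (adjusted p = 0.901). For 2 genes near Glo1, C57BL/6J had next to no counts. AC165951.1, at chr17:30920338-30963220 on the minus strand and antisense to Glp1r, had 1 count in all 24 C57BL/6J libraries and 6339 in DBA/2J, with 98 to 337 counts in each DBA/2J library. The ratio was 6358 with an exact interval of 1141 to 251169. AC125544.1 had 0 counts in C57BL/6J and 145 in DBA/2J, spread over 23 of 24 libraries, and the lower limit of the 2-sided exact interval of the ratio was 38.9.

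**Figure D5:**
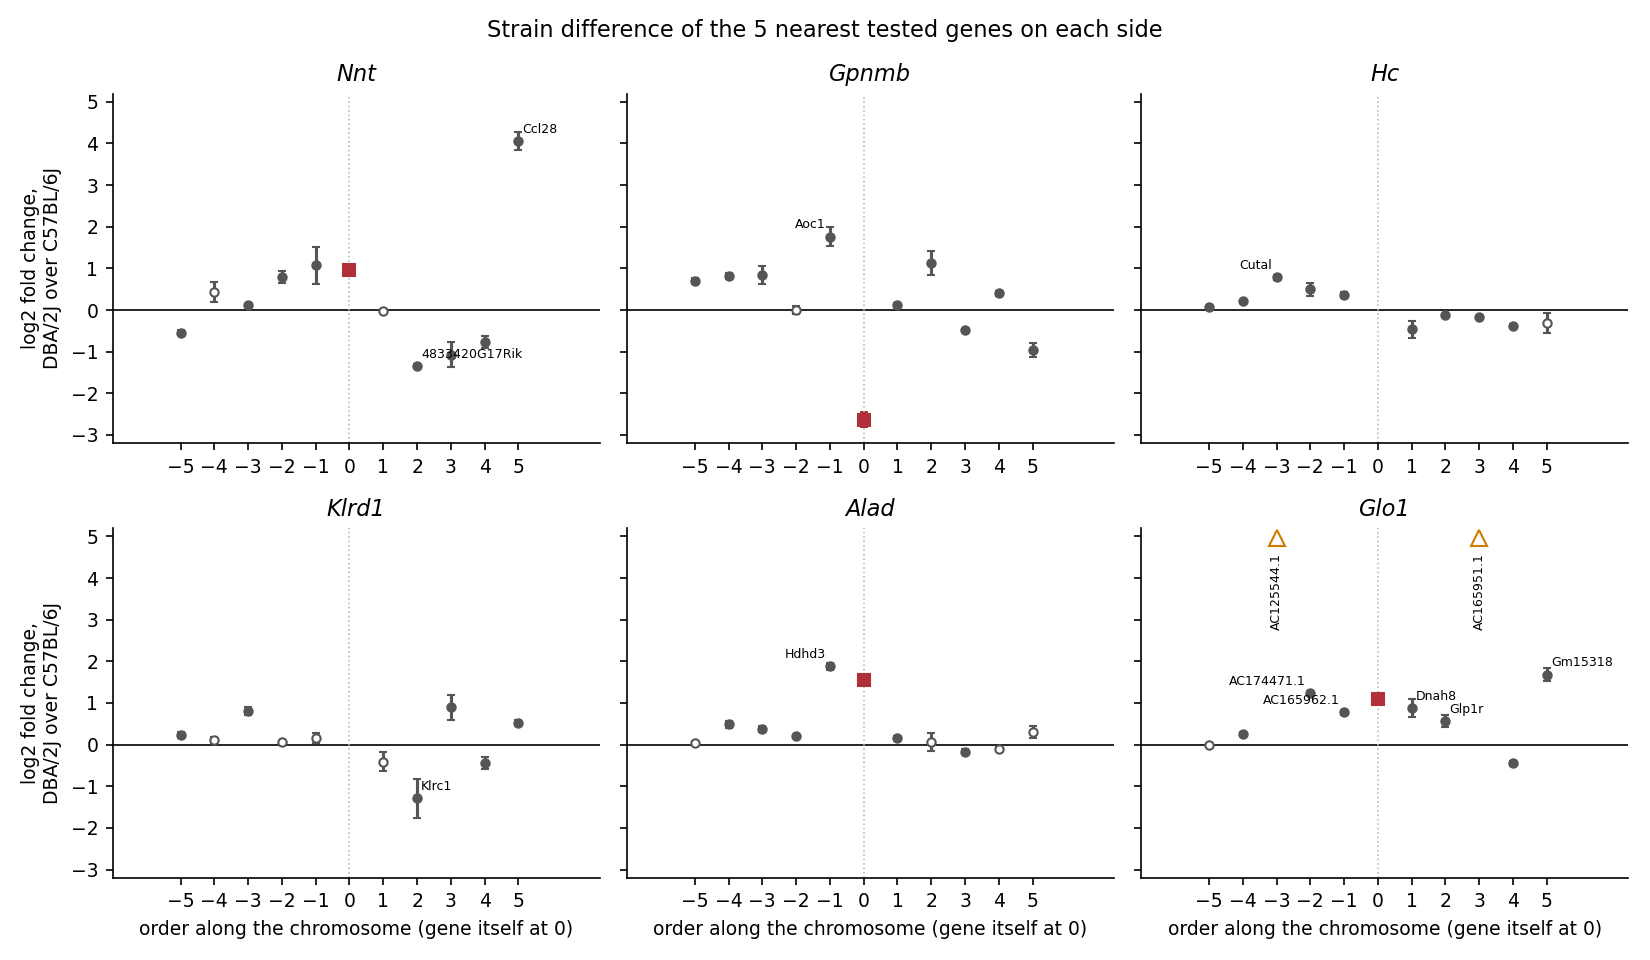
Log2 difference of DBA/2J against C57BL/6J over the 8 conditions (vertical axis) for each gene and its 10 nearest tested neighbours, in order along the chromosome (horizontal axis), in a panel for each of the 6 genes; red squares are the genes themselves where tested, filled circles neighbours that were called, open circles those that were not, bars the SE, and open triangles at the top mark the 2 Glo1 neighbours with at most 3 counts in C57BL/6J. Hdhd3 stands out beside Alad at 1.88 and Ccl28 near Nnt at 4.05.

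Near Nnt, Gpnmb, Hc and Klrd1 the neighbours went both ways. Of 10 around Nnt, 4 were higher and 4 lower: Ccl28, a chemokine gene, was 16.6-fold higher (log2 4.05, SE 0.214) and 4833420G17Rik was lower at -1.35 (SE 0.051), both without overlap in 8 of 8 conditions. The growth factor gene Fgf10 (1.07) and Gm10732 (0.79) were also higher, and 3110070M22Rik (-1.07), Tmem267 (-0.77) and Emb (-0.54) were lower. Of 10 around Gpnmb, 7 were higher and 2 lower. Aoc1 (1.76), Igf2bp3 (1.13), Gm44764 (0.84), Tmem176a (0.81) and Tmem176b (0.70) went against Gpnmb itself. Fam221a (-0.95) and Tra2a (-0.49) were lower like Gpnmb, Tra2a without overlap in 8 of 8 conditions. Of 10 around Hc, 5 were higher and 4 lower, with Cutal at 0.78 (SE 0.061) without overlap in 8 of 8 conditions. Of 10 around Klrd1, 4 were higher and 2 lower. Klrc1, which encodes the NKG2A partner of CD94, was lower at -1.29 (SE 0.471, adjusted p = 0.0163), and Klri1, of the same receptor cluster, was higher at 0.89, as were 1700101I11Rik (0.80) and Magohb (0.52).

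The genes most like each tested gene were found by Pearson's r over the 16 group means of log2 CPM, as a description with no test. The group means share libraries and conditions, and many genes follow them. Nnt was most like Bckdhb (0.992), of branched-chain amino acid breakdown. Gpnmb was most like Pcdhgb2 and Pcdhga10 (both 0.981), which share exons, so reads of one cannot always be told from the other. Alad was most like Ccl28 (0.991) and Ddx59 (0.990), and Glo1 like Lyrm7 (0.980) and Sfi1 (0.974). None of these lies on the chromosome of the gene it resembles, though Ccl28 is itself a neighbour of Nnt.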

How the data were processed

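The authors deposited raw counts per Ensembl gene, 1 column per library, without normalization. Per the submitters' processing notes, the tools were bcl2fastq 2.20.0, FastQC 0.11.8, STAR 2.7.9a and featureCounts 1.5.1, with the build GRCm38. The strand setting and the annotation release are not given in the sources used here. Per the labels' protocols the libraries were stranded mRNA preparations. Reads of DBA/2J were thus counted against a C57BL/6J reference. Symbols matched 55141 of 55487 IDs.

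Counts were tested with edgeR 4.0.16 in R 4.3.3: TMM normalization, the low-count filter at a minimum of 10, a robust quasi-likelihood fit and Benjamini-Hochberg adjustment over all genes tested. Strain contrasts came from all 48 libraries (32 residual degrees of freedom). Treatment effects and interactions came from the 12 libraries of each of 8 comparisons (8 degrees of freedom). The fits were tested on simulated data with known strain, treatment and interaction changes. The simulation gave every gene the same spread, so it does not cover genes or conditions with a wider spread. Depth limits Hc, Klrd1 and Gpnmb most; exact intervals cover counting error only.

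The 6 genes and the lists were chosen with earlier results of these data known. Named besides the 6 genes were up to 2 genes per list and direction with the smallest adjusted p, called neighbours (nearest by lower coordinate) with a log2 difference past 0.5, and the 2 genes most like each tested gene, of which 1 is not reported here. Rnf183, Pole3, Zfand3, Abcg1, Tra2a, Gzmb and Nkg7 were named after their values were seen. So were Ncr1 and the other natural killer list genes not called under normoxia. Alternatives were DESeq2 1.42.0, RLE normalization, no filter, other sets of libraries, a replicate block and leaving out each library.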

Additional observations from a re-analysis of the deposited data

Results flagged for a closer look

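The interaction of strain and normoxia for Nnt was singled out because the test of the difference between the strains' responses was past the threshold. It was -0.61 for the first Nnt ID and -0.62 for the second, whose counts are nearly the same. All 3 C57BL/6J and all 3 DBA/2J normoxia libraries lay above the 24 h controls of their strain, so the strains differed in the size of the rise and not in its direction. Its cause was not tested.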

How the results depend on the processing

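The strain differences over the 8 conditions kept their direction and their call under every alternative run. Leaving out each library gave 0.93 to 0.98 for Nnt, -2.86 to -2.57 for Gpnmb, 1.53 to 1.58 for Alad and 1.10 to 1.12 for Glo1, and counts summed over conditions gave 0.85, -2.73, 1.57 and 1.10. The labels number the replicates alike in all groups, but the deviations of same-numbered libraries correlated at -0.101 to 0.302, and in no comparison did every pair pass 0.1, so the numbers were not taken to pair them. Within a single strain, every pair passed 0.1 in 3 of 16 sets: tunicamycin at 24 h and normoxia-hyperoxia against normoxia in DBA/2J, and normoxia-hyperoxia against controls in C57BL/6J. With the replicate block the 4 values were 0.95, -2.63, 1.56 and 1.11, and the Nnt interaction under normoxia was -0.62 (adjusted p = 0.0290). The block moved the interaction counts from 117 to 71 genes (24 h against 6 h) and from 247 to 618 (normoxia-hyperoxia against controls).

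The counts of called genes moved most. A fit of the 6 libraries of a condition alone gave 4061 genes in place of 6722 (cyclosporin A at 6 h) and 2381 in place of 4018 (at 24 h). Without the filter and with DESeq2 there were 4 and 51 genes for cyclosporin A at 6 h, 3 and 22 at 24 h (3 in the fit of all 48 libraries), 395 and 527 for tunicamycin at 24 h in place of 233, and 1 and 1 for its interaction at 6 h. The same alternatives gave 817 and 360 interaction genes for time in place of 117, and 1156 and 686 for normoxia-hyperoxia against controls in place of 247 (409 in the fit of all 48). DESeq2 called 1 of the 4 genes in the interaction of normoxia-hyperoxia against normoxia, Nnt at 0.28 (adjusted p = 0.0305), where edgeR called 0. Without the filter, edgeR called 5 of the 6 genes in place of 4 in the effects of time and of normoxia against controls. It called 13059 and 16023 genes there. Leaving out 1 library gave 2988 to 5131 called genes (tunicamycin 6 h, strain), 4144 to 7305 (cyclosporin A 6 h), 2480 to 4111 (cyclosporin A 24 h), 2658 to 3991 (normoxia-hyperoxia), 0 to 1 (cyclosporin A 6 h, treatment), 78 to 344 (tunicamycin 24 h, treatment), 46 to 226 (time, interaction), 1860 to 2700 (normoxia, interaction) and 103 to 524 (normoxia-hyperoxia, interaction). It gave 0 to 1 of the 4 genes for the interaction under normoxia and for that of normoxia-hyperoxia against normoxia, where Nnt had 0.33 (adjusted p = 0.0497) without replicate 1 of DBA/2J normoxia-hyperoxia. The cause of these moves was not tested. A further 48 treatment effects and interactions of the tested genes were called under no setting, and 26 of them changed sign under some setting; these uncalled values were left out of the comparison above after they had been seen.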
